A study of Homo sapiens with 6 samples.

Results

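Clade B serpins and the antiproteases that epithelia secrete were examined in AsPC-1 cells with and without added MMP28. The set held 10 genes of the 58735 in the table, chosen by name: SERPINB1, SERPINB3, SERPINB4, SERPINB5, SERPINB6, SERPINB8, SERPINB9, SERPINA1, SLPI and PI3. RNA was sequenced in 6 libraries of AsPC-1, a cell line from a human pancreatic cancer. In the Vector group (n = 3, genotype labelled WT) the cells had received an empty lentivirus, and in the OE-MMP28 group (n = 3, genotype labelled MMP28 overexpression) a lentivirus with the cDNA of MMP28, a secreted matrix metalloproteinase. By the methods of the study the MMP28 lentivirus carried GFP and a puromycin resistance gene and infected cells were selected with puromycin, but the promoter that drives the cDNA was not given in the sources used here. The methods say of cell experiments in general that they were repeated independently, and of the RNA samples that each group was sampled 3 times, but not whether the 3 libraries of a group came from separate cultures. The p-values therefore measure the spread between these samples, which may be technical.

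Serpins are protease inhibitors that act as bait: the target protease cleaves an exposed loop, the serpin folds around it, and both are trapped in an inactive complex. Clade B serpins lack a classical secretion signal and work mostly inside the cell, where they protect it from proteases that leak from granules or lysosomes, whereas SERPINA1, SLPI and PI3 are secreted and restrain neutrophil proteases at epithelial surfaces. SERPINB5, or maspin, is an exception, since it does not inhibit proteases by the serpin mechanism.

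Of the 10 members, SERPINB5, SLPI and SERPINA1 were higher in OE-MMP28 cells, and SERPINB8 was lower. SERPINB5 was 1.83-fold, SLPI 1.98-fold and SERPINA1 6.83-fold higher. SERPINA1 nevertheless remained under 1 FPKM (fragments divided by gene length and by a library size) in every library. SERPINB1, SERPINB6 and SERPINB9 did not pass the test, PI3 had too few counts to be tested, and SERPINB3 and SERPINB4 had a count of 0 in all 6 libraries. The quasi-likelihood test of edgeR was run over 15319 genes, and a gene was called where its Benjamini-Hochberg adjusted p was under 0.05. By the same test 11.7% of the genes tested were called higher and 11.6% lower, 23.4% in all. SERPINA1 passed the filter on low counts through the OE-MMP28 group, since 3 of 3 of those libraries and 1 of 3 Vector libraries reached the minimum.

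Total counts per library lay between 13633249 and 16691458, and 3 counts, the limit that a count of 0 allows, were worth 0.180 to 0.220 CPM (counts scaled to the library total), a limit that covers counting error only. MMP28 itself was measured at 5.17, 9.11 and 8.43 FPKM in the Vector libraries and at 13.1, 13.9 and 15.1 FPKM in the OE-MMP28 libraries. The groups did not overlap, with a log2 fold change of 0.90 (SE 0.19, edgeR adjusted p = 0.00226), and a two-sided exact permutation test of the FPKM values gave p = 0.1, the smallest that 3 against 3 allows. Mitochondrial genes took 11.9 to 14.8% of the counts in Vector libraries and 8.80 to 11.9% in OE-MMP28 libraries, and the part of this difference in the results below was not tested. The median log2 fold change of all genes tested was 0.014.

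SERPINB5 encodes maspin, known as a tumour suppressor in breast epithelium. The gene lies at chr18:63476761-63505085 on the plus strand of GRCh38, the build used for all gene coordinates here (ENSG00000206075). Its promoter window is shown because SERPINB5 was the most abundant member that was higher in OE-MMP28 cells. This window and those that follow span 250 bases before and 50 after an annotated start, read 5′ to 3′ on the strand of the gene from RefSeq (GRCh38.p14), and this one covers chr18:63476708-63477007. Capitals mark matches, on either strand, to 5 short motifs. The TATA box was searched as TATAAA. The GC box was searched as GGGCGG, and the site of AP-1 as TGANTCA. The site of STAT factors was searched as TTCNNNGAA, where N is any base, and that of NF-kB by its 10-letter consensus.
SERPINB5: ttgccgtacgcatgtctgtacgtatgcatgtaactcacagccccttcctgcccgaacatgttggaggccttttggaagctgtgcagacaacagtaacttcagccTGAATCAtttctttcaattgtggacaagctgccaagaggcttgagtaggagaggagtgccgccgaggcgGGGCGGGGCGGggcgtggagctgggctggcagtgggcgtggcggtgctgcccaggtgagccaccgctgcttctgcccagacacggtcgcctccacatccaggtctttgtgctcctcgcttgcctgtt
It held 2 GC box matches that share a base and 1 AP-1 match, whose first base lay at position -146 from the start. Of all 35116 promoter windows, 45.0% held a GC box match, 7.71% an AP-1 match, 11.5% a TATA box match, 7.66% a STAT match and 11.3% an NF-kB match, and no NF-kB match was found in the 12 windows listed for 8 of the 10 members, which do not include SLPI and PI3. A match describes letters only and shows no binding.

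SERPINB5 had 3012, 1595 and 2398 counts in the Vector libraries and 5366, 4228 and 4445 in the OE-MMP28 libraries. Per gene length these were 50.01, 30.0 and 41.3 FPKM against 86.1, 67.7 and 67.1 FPKM. The lowest OE-MMP28 library lay above the highest Vector library, and Vector replicate 2 was the lowest of the 6. Groups that do not overlap in this way were found for 38.1% of all genes tested. The mean level was 40.4 ± 10.1 FPKM in Vector and 73.6 ± 10.8 FPKM in OE-MMP28 cells (SD, n = 3 each), and the log2 fold change was 0.87 (SE 0.17, 95% interval 0.51 to 1.24, edgeR adjusted p = 0.00124). The 13 tested genes within 5 Mb that were in no list had a median log2 fold change of 0.23, with 1 called higher and 1 lower. With that median subtracted, the log2 fold change of SERPINB5 was 0.64 (edgeR adjusted p = 0.0152). This p-value takes the median as exact, although the quartiles of the 13 genes were -0.027 and 0.398.

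**Figure D1:**
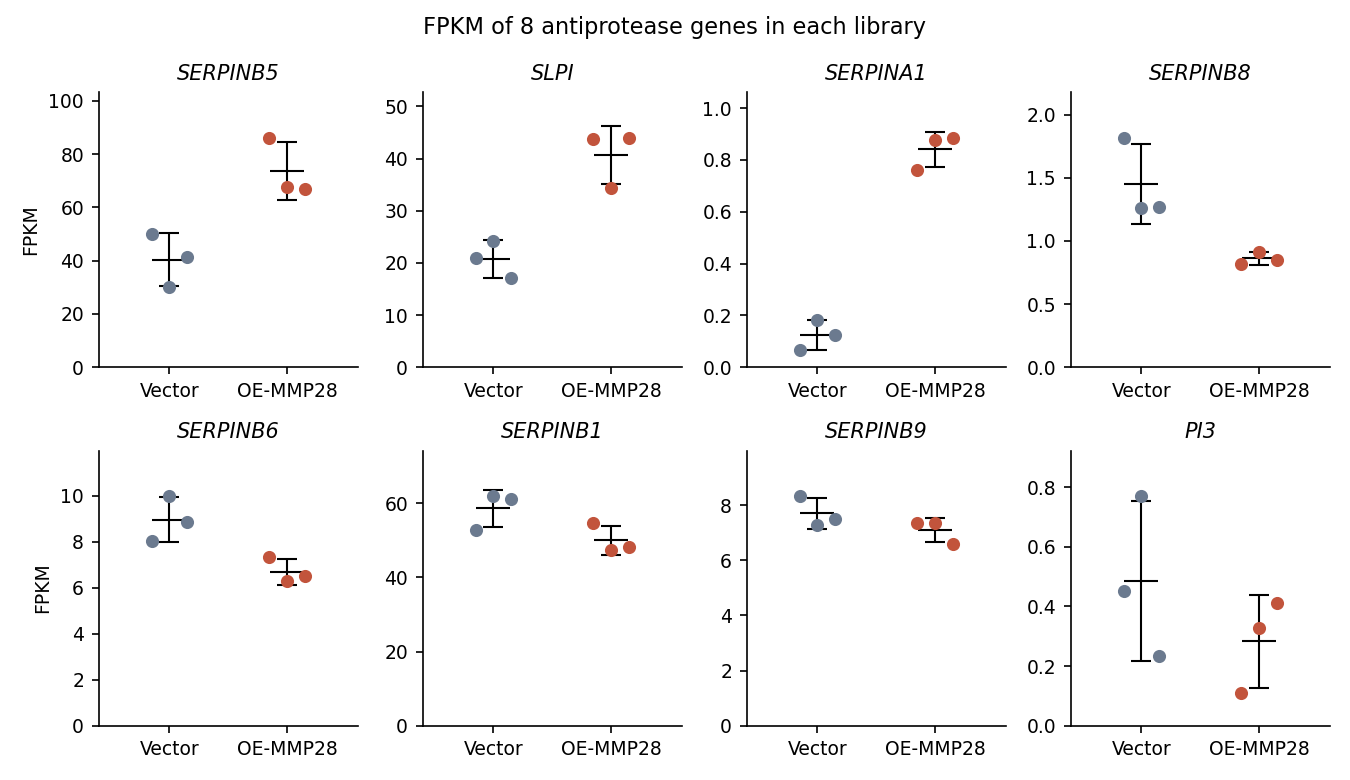
Level in FPKM (vertical axis, a linear scale for each gene) of the 8 members with counts, with each Vector (grey) and OE-MMP28 (red) library as a point and black bars for the mean ± SD of a group (n = 3). SERPINB5, SLPI and SERPINA1 sit higher in all OE-MMP28 libraries than in any Vector library, SERPINB8 and SERPINB6 sit lower, and the groups overlap for SERPINB1, SERPINB9 and PI3.

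SLPI encodes the secretory leukocyte protease inhibitor, a whey acidic protein (WAP) domain inhibitor of neutrophil elastase and cathepsin G found in mucus and other secretions. It lies at chr20:45252239-45254564 on the minus strand (ENSG00000124107). SLPI had 191, 195 and 150 counts in the Vector libraries and 412, 324 and 441 in the OE-MMP28 libraries. Its levels were 21.0, 24.2 and 17.1 FPKM against 43.7, 34.3 and 44.0 FPKM, and the groups did not overlap. The means were 20.7 ± 3.57 FPKM and 40.7 ± 5.52 FPKM (SD, n = 3 each), and the log2 fold change was 0.98 (SE 0.19, 95% interval 0.59 to 1.37, edgeR adjusted p = 0.000941). Unlike SERPINB5, SLPI lay among genes with a median slightly below 0: the 77 tested neighbours within 5 Mb had a median log2 fold change of -0.099, with 3 called higher and 11 lower.

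SLPI and PI3 belong to a row of WAP-domain genes on chromosome 20. Of 14 such genes in the table (WFDC genes, EPPIN, SLPI and PI3), 5 were tested, and SLPI was the only one of these called higher. WFDC3 fell from 14.4 ± 3.69 to 6.22 ± 0.314 FPKM (log2 fold change -1.20, edgeR adjusted p = 0.000197), and WFDC10B also fell (log2 fold change -1.58, edgeR adjusted p = 0.00201). WFDC13 had a log2 fold change of -1.25 (edgeR adjusted p = 0.0538) and WFDC2 one of 0.032 (edgeR adjusted p = 0.939), neither past the threshold. WFDC13 passed it under 6 of 18 alternative settings. WFDC10B and WFDC13 were looked up for their position beside the members. The facing ends of PI3 and SLPI are 75.7 kb apart.

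PI3 encodes elafin, a secreted inhibitor of neutrophil elastase and proteinase 3 (chr20:45174876-45176544, plus strand, ENSG00000124102). PI3 had 4, 6 and 2 counts in the Vector libraries and 1, 3 and 4 in the OE-MMP28 libraries. These counts overlapped and lay near the limit that a count of 0 allows. PI3 was under the filter on low counts, so a small difference could be missed and none is read from these counts.

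SERPINA1 encodes alpha-1 antitrypsin, the main inhibitor of neutrophil elastase in blood plasma, which liver cells and also some epithelial cells make. The gene lies at chr14:94376747-94390693 on the minus strand (ENSG00000197249). RefSeq gave 2 start windows, and they are shown because SERPINA1 had the largest fold change of the members. The first window covers chr14:94390586-94390885 and the second chr14:94388553-94388852, with capitals as above.
SERPINA1 first window: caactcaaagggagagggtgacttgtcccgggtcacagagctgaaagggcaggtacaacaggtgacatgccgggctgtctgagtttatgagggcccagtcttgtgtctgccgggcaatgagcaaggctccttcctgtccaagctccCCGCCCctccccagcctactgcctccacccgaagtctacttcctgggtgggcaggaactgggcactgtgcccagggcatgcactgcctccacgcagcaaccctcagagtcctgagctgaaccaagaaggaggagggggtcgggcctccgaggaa
SERPINA1 second window: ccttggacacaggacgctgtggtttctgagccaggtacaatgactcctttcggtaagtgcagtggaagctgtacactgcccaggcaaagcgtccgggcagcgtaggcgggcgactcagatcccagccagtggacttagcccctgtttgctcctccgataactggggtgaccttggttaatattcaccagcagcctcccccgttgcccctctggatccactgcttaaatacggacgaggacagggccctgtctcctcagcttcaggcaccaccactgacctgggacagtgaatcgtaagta
The first window held 1 GC box match, read on the other strand, at position -104, and the second held no match to the 5 motifs. Gene counts do not say which start was used.

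SERPINA1 had 5, 12 and 9 counts in the Vector libraries and 59, 68 and 73 in the OE-MMP28 libraries. Its levels were 0.0667, 0.181 and 0.125 FPKM against 0.761, 0.875 and 0.885 FPKM. Each OE-MMP28 library exceeded each Vector library, and the group means were 0.124 ± 0.0572 and 0.840 ± 0.0689 FPKM (SD, n = 3 each). The log2 fold change was 2.77 (SE 0.38, 95% interval 1.99 to 3.56, edgeR adjusted p = 2.94e-05). Neighbouring genes were higher as well: of 50 tested genes within 5 Mb in no list, 25 were called higher and 0 lower by edgeR, with a median log2 fold change of 0.55. With the local median subtracted, the log2 fold change of SERPINA1 was 2.23 (edgeR adjusted p = 0.000437). Both edgeR adjusted p-values carry a limit, since SERPINA1 passed the filter on low counts through the OE-MMP28 group, where it was high. SERPINA1 lies in a cluster of 10 serpin genes on chromosome 14, and none of the other 9 exceeded 10 counts in a library, with 6 of them at 0 throughout.

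**Figure D2:**
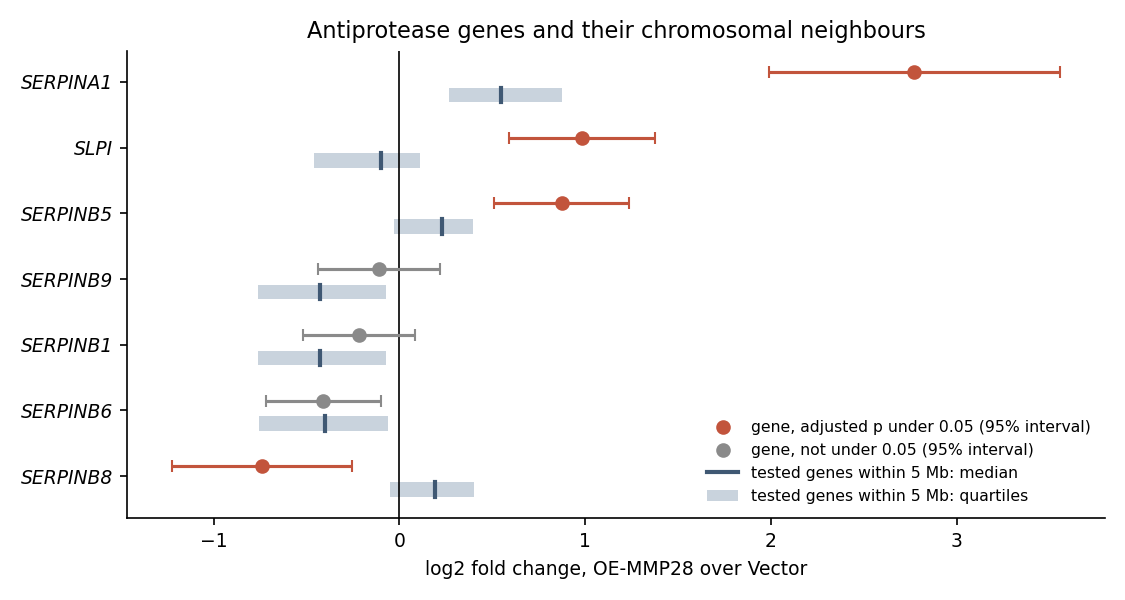
Log2 fold change of OE-MMP28 over Vector (horizontal axis) for the 7 tested members as points with 95% intervals, red where the adjusted p was under 0.05, and below each the median (line) and quartiles (band) of the tested genes within 5 Mb. SERPINA1 lies furthest to the right at 2.77 with a neighbour median of 0.55, and the medians beside SERPINB1, SERPINB6 and SERPINB9 lie at -0.42, -0.40 and -0.42.

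SERPINB8 encodes an intracellular serpin that inhibits furin, the protease that cuts proproteins in the secretory pathway. It lies at chr18:63969925-64019779 on the plus strand (ENSG00000166401). Its promoter window, chr18:63969831-63970130, is shown because SERPINB8 sits at the far end of the same gene cluster as SERPINB5 and differed in the opposite direction.
SERPINB8: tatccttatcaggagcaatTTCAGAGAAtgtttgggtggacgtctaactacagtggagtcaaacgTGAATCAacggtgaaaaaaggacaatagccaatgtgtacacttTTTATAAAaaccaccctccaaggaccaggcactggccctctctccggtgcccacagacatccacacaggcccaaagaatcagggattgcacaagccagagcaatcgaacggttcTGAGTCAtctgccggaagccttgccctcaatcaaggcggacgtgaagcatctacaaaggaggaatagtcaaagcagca
The window held 2 overlapping TATA box matches starting at -142 and -140, 2 AP-1 matches at -185 and -28, and 1 STAT match at -231. It held no GC box match, whereas the SERPINB5 window held no TATA box match.

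SERPINB8 had 163, 100 and 110 counts in the Vector libraries and 76, 85 and 84 in the OE-MMP28 libraries. Its levels were 1.82, 1.26 and 1.27 FPKM against 0.819, 0.914 and 0.851 FPKM. The groups did not overlap, and Vector replicate 1 stood highest. The means were 1.45 ± 0.318 and 0.861 ± 0.0482 FPKM (SD, n = 3 each), 1.67-fold lower in OE-MMP28 cells on the fitted scale, with a log2 fold change of -0.74 (SE 0.23, 95% interval -1.23 to -0.26, edgeR adjusted p = 0.0255). The call was lost in some fits without a single library. Without Vector replicate 1 the log2 fold change was -0.54 (edgeR adjusted p = 0.113). Without OE-MMP28 replicate 1, 2 or 3 it stayed at -0.71, -0.80 or -0.74. The SE there was 0.25, 0.28 or 0.27, and the edgeR adjusted p was 0.0564, 0.0685 or 0.0713. The 12 tested neighbours within 5 Mb had a median log2 fold change of 0.19. Part of the SERPINB8 exons overlaps HMSD and the antisense gene AC009802.1, which had at most 1 and 2 counts in any library, and whether counting used the strand was not given in the sources used here.

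SERPINB5 and SERPINB8 are the outer genes of a run of 10 clade B serpins that spans 543 kb of chromosome 18. Their facing ends are 465 kb apart, and the 8 genes between them had at most 2 counts in any library. SERPINB3 and SERPINB4, the squamous cell carcinoma antigens, which inhibit lysosomal cysteine proteases and chymotrypsin-like proteases respectively, are among these 8 genes (chr18:63655197-63661963 and chr18:63637259-63644298, both on the minus strand). Their promoter windows are 98.7% identical, and the count of 0 of each in the 6 libraries still leaves room for up to 0.180 to 0.220 CPM. For SERPINB3, 34.9% of the exon bases overlap SERPINB11 on the opposite strand, and 34.5% of its 100-base stretches occur in SERPINB4 or SERPINB11. How reads with several matches or on overlapping genes were counted was not given in the sources used here, so the limit may be too low. The other 6 clade B serpins, SERPINB2, SERPINB7, SERPINB10, SERPINB11, SERPINB12 and SERPINB13, all lie in this run, and 4 of them were at 0 in all libraries.

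**Figure D3:**
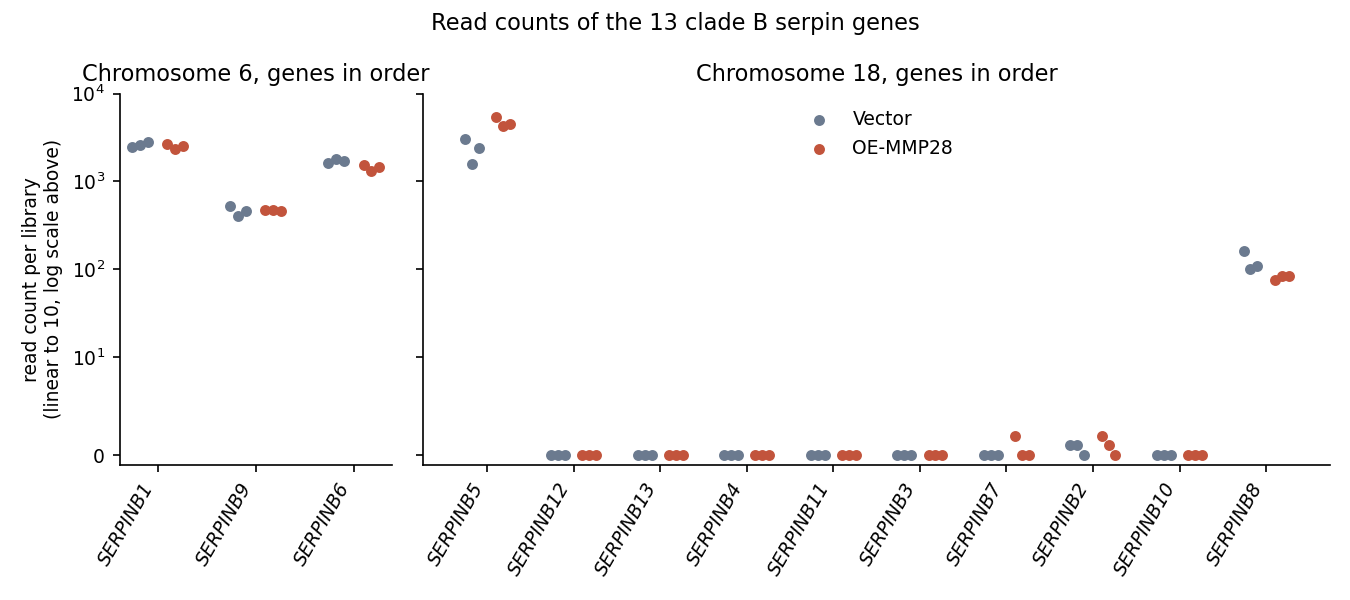
Read count per library (vertical axis, linear up to 10 and log scale above) of the 3 clade B serpin genes of chromosome 6 and the 10 of chromosome 18, in their order along the chromosome, with each Vector (grey) and OE-MMP28 (red) library as a point. On chromosome 18 SERPINB5 and SERPINB8 at the ends hold 76 to 5366 counts and the 8 genes between have at most 2 counts, while all 3 genes on chromosome 6 are expressed.

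SERPINB1, SERPINB6 and SERPINB9 form the other clade B cluster, 140 kb on chromosome 6, and all 3 were expressed. SERPINB1, which inhibits neutrophil elastase, cathepsin G and proteinase 3, lies at chr6:2832332-2842006 (minus strand, ENSG00000021355). It had 52.7, 61.9 and 61.2 FPKM in the Vector libraries and 54.6, 47.4 and 48.3 FPKM in the OE-MMP28 libraries. The groups overlapped, with means of 58.6 ± 5.08 and 50.1 ± 3.91 FPKM (SD, n = 3 each) and a log2 fold change of -0.22 (SE 0.14, 95% interval -0.52 to 0.083, edgeR adjusted p = 0.296).

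SERPINB6, an inhibitor of cathepsin G and trypsin-like proteases, lies at chr6:2948159-2972165 (minus strand, ENSG00000124570). It had 8.04, 9.98 and 8.88 FPKM in the Vector libraries and 7.34, 6.28 and 6.49 FPKM in the OE-MMP28 libraries. The groups did not overlap, yet the log2 fold change of -0.41 (SE 0.15, 95% interval -0.72 to -0.10) missed the threshold with an edgeR adjusted p of 0.0508. It passed under 7 of 18 alternative settings, among them leaving out Vector replicate 1 (-0.48, edgeR adjusted p = 0.0371) or OE-MMP28 replicate 1 (-0.49, edgeR adjusted p = 0.0347).

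SERPINB9, the inhibitor of granzyme B that shields cells from cytotoxic granules, lies at chr6:2887266-2903280 (minus strand, ENSG00000170542). It had 8.32, 7.28 and 7.51 FPKM in the Vector libraries and 7.34, 7.35 and 6.58 FPKM in the OE-MMP28 libraries. The groups overlapped, and the log2 fold change was -0.11 (SE 0.16, 95% interval -0.44 to 0.22, edgeR adjusted p = 0.662).

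Genes around this cluster were lower in OE-MMP28 cells more often than higher. Around SERPINB1 and SERPINB9, 39 tested genes within 5 Mb in no list had a median log2 fold change of -0.42, with 12 called lower and 0 higher by edgeR. Around SERPINB6, 40 such genes, largely the same ones, had a median of -0.40, with 12 lower and 0 higher. Of all genes tested, 11.6% were called lower. With the local median subtracted, SERPINB6 had a log2 fold change of -0.0075 (edgeR adjusted p = 0.979), SERPINB1 one of 0.21 (edgeR adjusted p = 0.360) and SERPINB9 one of 0.31 (edgeR adjusted p = 0.193). The signs of SERPINB1 and SERPINB9 thus turned under this setting, and neither passed the test with or without it.

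In the Vector group the order of the levels per gene length was SERPINB1, SERPINB5, SLPI, SERPINB6, SERPINB9, SERPINB8, PI3 and SERPINA1. Neighbours in this order did not overlap across the 3 libraries, except SERPINB6 (8.04 to 9.98 FPKM) and SERPINB9 (7.28 to 8.32 FPKM). In the OE-MMP28 group SERPINB5 stood first, with each of its libraries above each of SERPINB1. There SERPINB6 and SERPINB9 again overlapped, and so did SERPINA1 (0.761 to 0.885 FPKM) and SERPINB8 (0.819 to 0.914 FPKM), both above PI3. The order and the overlaps depend on the length used. The gene model of SERPINB6 counts 13201 bases of exons and its principal transcript 5620. Per principal transcript the Vector level of SERPINB6 was 21.1 ± 2.28 FPKM, beside 20.7 ± 3.57 FPKM for SLPI. On that length the Vector levels of SERPINB1 and SERPINB5 were 69.2 ± 6.00 and 57.2 ± 14.2 FPKM. The OE-MMP28 levels of SERPINA1 and SERPINB8 were then 1.17 ± 0.0956 and 1.45 ± 0.0814 FPKM. The overlaps given above therefore hold for the gene model length only.

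Ratios taken within a library do not depend on the scaling between libraries. The FPKM of SERPINB5 divided by that of SERPINB1 was 0.948, 0.484 and 0.675 in the Vector libraries and 1.58, 1.43 and 1.39 in the OE-MMP28 libraries. The groups did not overlap, but these ratios restate the levels of SERPINB5 and SERPINB1 given above and are no separate test. SLPI divided by SERPINB5 was 0.547 ± 0.226 in the Vector group and 0.557 ± 0.0859 in the OE-MMP28 group (SD, n = 3 each), with overlapping libraries. The summed FPKM of the 10 members, which is no ratio and does depend on that scaling, was 138 ± 3.55 in the Vector group and 180 ± 18.5 in the OE-MMP28 group. Of this sum SERPINB1 made up 42.4% ± 4.67 in the Vector group and 27.8% ± 0.768 in the OE-MMP28 group, and SERPINB5 made up 29.1% ± 6.55 and 40.8% ± 2.25.

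By the shape of their levels over the 6 libraries, EIF2S1, PSMC1 and PAK1IP1 were most like SERPINB5 among 12257 genes. Their root mean square differences from SERPINB5 in centred log2(FPKM + 1) were 0.0568, 0.0618 and 0.0707. For SERPINB1 the most alike were TCF7L2, TRIM52 and BMT2, with differences of 0.0314, 0.0334 and 0.0343. These values describe 6 libraries that share 2 groups, and no test was made.

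**Figure D4:**
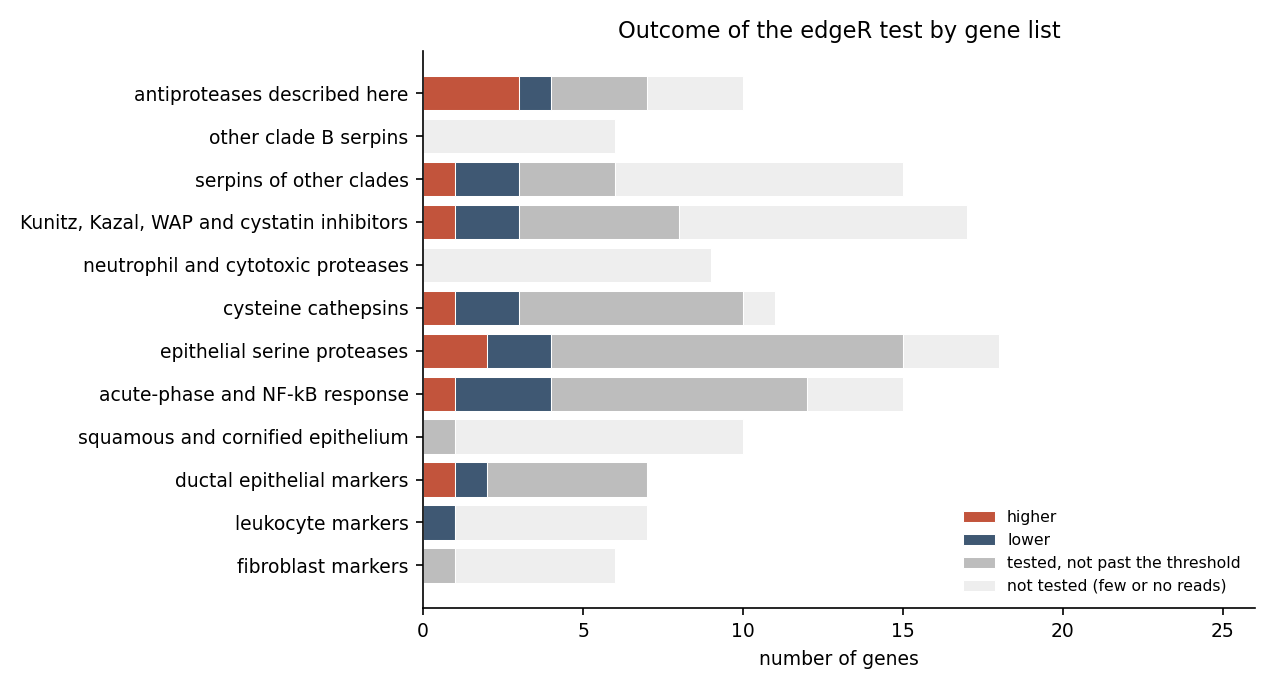
Number of genes (horizontal axis) called higher, called lower, tested but not past the threshold, and not tested, in the members (top bar) and in each list of related or marker genes. Of the 10 members 7 were tested, with 3 called higher and 1 lower, and no gene of the neutrophil and cytotoxic protease list was tested. Of all genes tested, 11.7% were called higher and 11.6% lower.

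The proteases that many members are known to inhibit had few or no counts in these cells. Of 9 neutrophil and cytotoxic proteases, 7 had a count of 0 in all libraries, ELANE, PRTN3 and CTSG among them, and none was tested. GZMM was the highest, with at most 8 counts. The cysteine cathepsins, lysosomal proteases that some clade B serpins also inhibit, were expressed: 10 of 11 were tested, 1 was called higher and 2 lower, and their median log2 fold change was 0.019. CTSC, which activates granule serine proteases, rose from 9.84 ± 1.38 to 17.0 ± 1.29 FPKM (SD, n = 3 each, log2 fold change 0.80, edgeR adjusted p = 0.000794), but with the median of its neighbours subtracted its log2 fold change was 0.22 (edgeR adjusted p = 0.364). CTSF fell from 1.24 ± 0.314 to 0.378 ± 0.148 FPKM (log2 fold change -1.69, edgeR adjusted p = 0.00228), and CTSK, known for collagen breakdown in bone, fell from 5.64 ± 1.27 to 2.36 ± 0.605 FPKM (log2 fold change -1.24, edgeR adjusted p = 0.00133). CTSZ was the most abundant, at 91.6 ± 2.76 and 95.3 ± 9.38 FPKM (log2 fold change 0.070, edgeR adjusted p = 0.768).

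Of 18 epithelial serine proteases, 15 were tested, 2 were called higher and 2 lower, with a median log2 fold change of 0.25. PRSS22 rose from 3.56 ± 1.12 to 10.3 ± 2.45 FPKM (log2 fold change 1.55, edgeR adjusted p = 0.000100). ST14, or matriptase, rose from 48.5 ± 14.1 to 70.2 ± 10.1 FPKM (log2 fold change 0.54, edgeR adjusted p = 0.0336), although its groups overlapped. ST14 was called in 9 of 18 alternative settings, and with the median of its neighbours subtracted its log2 fold change was -0.039 (edgeR adjusted p = 0.915). The kallikreins KLK5 and KLK6, secreted trypsin-like proteases, fell. KLK5 went from 0.784 ± 0.217 to 0.160 ± 0.110 FPKM (log2 fold change -2.24, edgeR adjusted p = 0.00594) and KLK6 from 12.7 ± 3.22 to 6.12 ± 1.01 FPKM (log2 fold change -1.05, edgeR adjusted p = 0.000998). KLK5 passed the filter on low counts through the Vector group, with 3 of 3 Vector and 0 of 3 OE-MMP28 libraries at the minimum. PRSS3, a trypsinogen and the most abundant of the list, had 89.5 ± 5.38 and 107 ± 13.9 FPKM (log2 fold change 0.27, edgeR adjusted p = 0.211).

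Other inhibitors moved in both directions. Of 15 serpins of other clades, 6 were tested, 1 was called higher and 2 lower, with a median log2 fold change of -0.015. SERPINF2, or alpha-2-antiplasmin, fell from 1.02 ± 0.152 to 0.454 ± 0.230 FPKM (log2 fold change -1.15, edgeR adjusted p = 0.0467). SERPINE2, the thrombin inhibitor protease nexin and the most abundant of the list, rose from 137 ± 9.65 to 181 ± 17.98 FPKM (log2 fold change 0.41, edgeR adjusted p = 0.0380). SERPINF2 was called in 10 and SERPINE2 in 7 of 18 alternative settings.

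Of 17 Kunitz, Kazal, WAP and cystatin inhibitors, 8 were tested, 1 was called higher and 2 lower, with a median log2 fold change of 0.078. SPINT2, an inhibitor of matriptase and related proteases, rose from 40.5 ± 5.48 to 55.6 ± 9.29 FPKM (log2 fold change 0.47, edgeR adjusted p = 0.0394), and was called in 9 of 18 alternative settings. TFPI, the inhibitor of the tissue factor pathway of clotting, fell from 13.4 ± 1.61 to 8.13 ± 1.09 FPKM (log2 fold change -0.71, edgeR adjusted p = 0.00232), and WFDC3 was the other gene that fell. With the median of its neighbours subtracted, TFPI had a log2 fold change of -0.38 (edgeR adjusted p = 0.0980). CSTB, an inhibitor of cathepsins, was at 49.1 ± 8.10 and 53.3 ± 6.81 FPKM (log2 fold change 0.13, edgeR adjusted p = 0.584).

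SLPI, SERPINA1 and PI3 are known to respond to inflammatory signals, so acute-phase and NF-kB response genes were set beside them. Of 15 such genes, 12 were tested, 1 was called higher and 3 lower, with a median log2 fold change of -0.15. NFKBIA, an inhibitor of NF-kB, rose from 15.98 ± 1.11 to 21.6 ± 2.06 FPKM (log2 fold change 0.44, edgeR adjusted p = 0.0468). It was called in only 3 of 18 alternative settings, and with the median of its neighbours subtracted its log2 fold change was -0.12 (edgeR adjusted p = 0.674). The cytokine genes IL1A and IL1B fell, IL1A from 0.649 ± 0.0922 to 0.156 ± 0.0468 FPKM (log2 fold change -2.03, edgeR adjusted p = 0.00441) and IL1B from 0.726 ± 0.512 to 0.127 ± 0.0488 FPKM (log2 fold change -2.47, edgeR adjusted p = 0.00211). Both passed the filter on low counts through the Vector group, with 3 of 3 Vector and 0 of 3 OE-MMP28 libraries at the minimum. The chemokine gene CXCL1 fell from 1.91 ± 1.17 to 0.782 ± 0.0941 FPKM with overlapping groups (log2 fold change -1.26, edgeR adjusted p = 0.0414) and was called in 9 of 18 alternative settings. LCN2, which encodes an antibacterial secreted protein, was at 101 ± 2.60 and 90.9 ± 9.88 FPKM (log2 fold change -0.14, edgeR adjusted p = 0.529).

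Markers of cell types were checked beside the members. All 7 ductal epithelial markers were tested, and KRT19 rose from 624 ± 34.1 to 1012 ± 140 FPKM (log2 fold change 0.71, edgeR adjusted p = 0.00175), while CDH1, the epithelial adhesion gene E-cadherin, fell from 20.3 ± 2.61 to 13.4 ± 2.15 FPKM (log2 fold change -0.59, edgeR adjusted p = 0.0113). CDH1 was called in 13 of 18 alternative settings, and with the median of its neighbours subtracted its log2 fold change was -0.21 (edgeR adjusted p = 0.422). KRT18 was the most abundant, at 1095 ± 194 and 1297 ± 137 FPKM (log2 fold change 0.26, edgeR adjusted p = 0.241). Of 10 squamous and cornified epithelium markers, 9 had at most 10 counts in any library, with TP63 at 9 or fewer and KRT5 and IVL at 0. Of 7 leukocyte markers only LYZ was tested, which fell from 176 ± 11.6 to 128 ± 20.7 FPKM (log2 fold change -0.45, edgeR adjusted p = 0.0376, called in 12 of 18 alternative settings), while PTPRC had at most 1 count. Of 6 fibroblast markers only LUM was tested, at 37.3 ± 3.52 and 45.3 ± 10.1 FPKM (log2 fold change 0.29, edgeR adjusted p = 0.208), while COL1A1 and DCN had at most 11 counts each. The summed FPKM of the list ranged from 2596 to 3542 in Vector and from 3541 to 4328 in OE-MMP28 libraries for the ductal markers, from 0.780 to 1.58 and from 0.706 to 1.47 for the squamous markers, from 163 to 186 and from 106 to 146 for the leukocyte markers, and from 33.9 to 40.9 and from 39.3 to 57.0 for the fibroblast markers. The part of these markers in the differences of the members was not tested. In these bulk libraries fewer cells with a transcript and less of it per cell cannot be told apart.

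**Figure D5:**
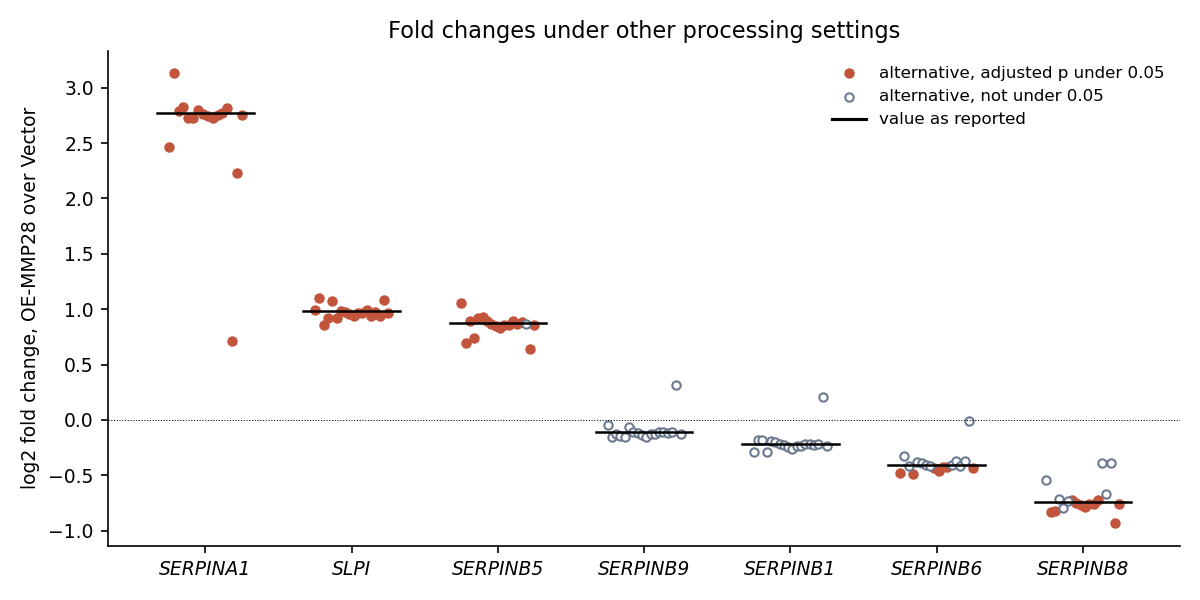
Log2 fold change (vertical axis) of each tested member as reported (black line) and under each alternative processing setting (points, filled where the adjusted p was under 0.05). SERPINB5, SLPI and SERPINA1 stay above 0 in all settings drawn, SERPINB8 and SERPINB6 stay at or below 0, and SERPINB1 and SERPINB9 cross to 0.21 and 0.31 when the local median is subtracted.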

How the data were processed

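RNA of AsPC-1 cells was sequenced in 3 Vector and 3 OE-MMP28 libraries, grouped by the sample labels. The authors deposited read counts per gene as whole numbers, neither normalized nor pooled, and FPKM values (fragments per kilobase of exon length, scaled to a library size). The library size implied by the deposited FPKM differed from the summed counts by -2.01 to 2.02%. The submitters' processing notes name HISAT2 2.0.5 and featureCounts 1.5.0-p3, and their settings, strand use and handling of reads with several matches are not given in the sources used here. All 58735 gene coordinates were those of GENCODE 29 on GRCh38. The authors' own comparison (its log2 fold change, p-value and adjusted p-value columns in the deposited table) was not used, and 0 per-sample columns were left unmapped.

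Counts were tested with edgeR 4.0.16 in R 4.3.3 (quasi-likelihood, group only, TMM scaling). Genes were kept by filterByExpr (minimum count 10, minimum total 15), which left 15319, and p-values were adjusted over all of them by the Benjamini-Hochberg procedure. SEs were taken as the absolute log2 fold change divided by the square root of F. The scripts were tested on simulated data. Totals of 13633249 to 16691458 set the precision. Neighbours were tested genes in no list with midpoints within 5 Mb. Their median was subtracted as a fixed value, so adjusted p-values after subtraction leave out the uncertainty of the median.

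The members and gene lists were chosen with earlier results of these data known. The named genes were MMP28, all 10 members, and from each list the most abundant gene and at most 4 past the threshold with the largest absolute change, with WFDC10B and WFDC13 added for their position. Of these, 1 gene is not reported here. The 3 genes most alike were named for the 2 most abundant members.

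Alternatives were leaving out each library, a replicate block, 2 other filters, upper-quartile and RLE scaling, DESeq2 1.42.0, limma 3.58.1 with voom and on log2(FPKM + 1) or log2(FPKM + 0.1), an offset for the local median, and protein-coding genes only.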

Additional observations from a re-analysis of the deposited data

How the results depend on the processing

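SERPINB5, SLPI and SERPINA1 kept their direction in all settings run, and all 3 were called by edgeR when any 1 library was left out. On log2(FPKM + 1) with limma and no filter, SERPINB5 (0.87, adjusted p = 0.0904) and MMP28 (0.84, adjusted p = 0.0903) were no longer past the threshold. SERPINB8 lost its call without single libraries (-0.80 to -0.54 where lost, -0.83 to -0.54 over all 6) and with limma on log2(FPKM + 1) (-0.39, with and without the filter) and log2(FPKM + 0.1) (-0.67). SERPINB6 passed with a minimum of 1 CPM in 3 libraries (-0.43), upper-quartile scaling (-0.46), RLE scaling (-0.43), DESeq2 (-0.43) and protein-coding genes only (-0.43), and ranged from -0.49 to -0.33 without single libraries. SERPINA1 was at 0.71 on log2(FPKM + 1) with no filter, a scale that understates changes of low genes, and was still called. SERPINB1 (0.21), SERPINB9 (0.31), ST14 (-0.039) and NFKBIA (-0.12) reversed with the local-median offset. WFDC2, never past the threshold, reversed with upper-quartile scaling (-0.014) and ranged from -0.22 to 0.35 without single libraries. The cause of these shifts was not tested.

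Of the members, 3 were called higher in the alternatives on counts and 2 in each of the 3 limma fits on FPKM: SERPINA1 was under the filter in the fits with one, and SERPINB5 missed the threshold in the fit without. The count called lower was 1, but 0 to 1 without single libraries, 2 in the settings in which SERPINB6 passed other than those without a library, and 0 with limma on either FPKM scale. In the other lists 7 genes were higher and 13 lower. The higher count was 3 to 10 without single libraries, 3 with upper-quartile scaling and with limma on log2(FPKM + 1) or log2(FPKM + 0.1), 1 with limma without the filter, and 4 with the local-median offset. The lower count was 6, 7 and 2 with these limma fits. Over all genes 1795 were higher and 1784 lower. Leaving out single libraries gave 985 to 1916 and 1044 to 1949, limma on log2(FPKM + 1) 1009 and 965, on log2(FPKM + 0.1) 1000 and 970, limma without the filter 362 and 308, and the local-median offset 1143 higher.

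Whether libraries with the same replicate number shared a culture or a batch was not given in the sources used here. Between same-numbered libraries, deviations from the group means correlated at 0.0168, 0.00798 and -0.0876. Differently numbered libraries of the opposite groups correlated at -0.148 to 0.167. With 3 libraries per group these correlations cannot tell whether a batch was shared. With the replicate block, 1844 genes were higher and 1841 lower, SERPINB5 was at 0.90, SLPI at 0.99, SERPINA1 at 2.80, SERPINB8 at -0.72 and MMP28 at 0.93, and no call of a member changed. Depth limits PI3, SERPINB3 and SERPINB4, which had too few counts for a test.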

Other observations

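SERPINB9P1 lies between SERPINB1 and SERPINB9 in the chromosome 6 cluster. Its symbol has the form of a SERPINB9 pseudogene, but its listed biotype is lincRNA. The gene was looked up for its name and chosen after its values were seen, so no test is given. It had 14, 17 and 20 counts in the Vector libraries and 6, 1 and 5 in the OE-MMP28 libraries. It passed the filter on low counts through the Vector group, since 3 of 3 Vector libraries and 0 of 3 OE-MMP28 libraries reached the minimum.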
